A study of Rattus norvegicus with 16 samples.

Results

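Ogg1 and 31 other DNA repair genes were followed in the stomach and the middle part of the intestine of suckling rats. The 32 genes were listed by name and not by a measured value, though with earlier results of these data known. They cover base excision repair, mismatch repair, nucleotide excision repair and the response to double-strand breaks. By gene name, 30 of the 32 were found among the 21781 named genes of the array, and Msh6 and Ercc2 were not analysed here. Where a gene had several probes, the probe with the highest mean signal in the tissue channel was used. After dim probes were left out, 27 genes remained of the 15879 genes whose brightest probe was kept.

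Cells remove damaged bases, mispaired bases, bulky adducts and broken strands by separate routes. In base excision repair a DNA glycosylase such as Ogg1, which removes 8-oxoguanine from oxidized DNA, or Mutyh, which removes adenine paired with 8-oxoguanine, leaves a baseless site that Apex1 cuts, Polb fills and a ligase closes. Several of these enzymes, among them Fen1 and Lig1, also process the lagging strand during DNA replication, so that their transcripts are plentiful in dividing cells such as those of the intestinal crypts.

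Wistar rats (Wistar Han in the methods) received saline solution (C groups) or obestatin, a gut peptide made from the same precursor as ghrelin, at 250 nmol/kg body weight (OH groups). Both were given by gavage 2 times daily between days 14 and 21 after birth. Stomach and middle intestine were sampled under both treatments, which gave 4 groups of 4 arrays, with the tissue of 1 rat on each array. On all 16 arrays, cRNA of the tissue was labelled with Cy5 and cRNA of a common reference, pooled from all rats, with Cy3, and the dyes were not swapped. The methods gave each treatment its own litters, and the labels do not say which litter a rat came from. All values below are log2 ratios of Cy5 to Cy3 unless a channel is named, so 0 stands for the level of the pool. In whole tissue, fewer cells of a type and less RNA per cell cannot be told apart.

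Each group lay on a slide of its own, so neither treatment nor tissue can be told apart from slide. OH and C slides were scanned on 2 different days, so scan and treatment cannot be told apart either. Raw Cy3, which holds the common reference, had a median of 188 to 195 units on the C arrays and 341 to 399 on the OH arrays, although the methods name the same pool for all arrays. Whether the pool was labelled anew between slides is not given. Stomach markers were high in the stomach: all 12 genes of the oxyntic and surface mucosa passed the test in C and in OH, while 12 of 13 enterocyte genes passed as lower. Of 9 pancreas genes, 7 passed as higher in stomach in C and 6 in OH, with Ptf1a at 6.41 and 7.11. Striated muscle genes averaged a log2 ratio of 2.89 to 3.56 on C stomach arrays 1, 3 and 4. Their mean was -0.90 on C stomach array 2 and -0.42 to 0.95 on the OH stomach arrays. Smooth muscle genes averaged -2.82 to -1.53 on the C stomach arrays and 0.94, -1.47, -2.81 and 0.12 on the OH stomach arrays. From C to OH in stomach, 8 of 8 smooth muscle genes were higher and 7 of 7 forestomach genes lower. None of these pancreas, muscle and forestomach genes passed for OH against C, and their part in the results was not tested. Without C stomach array 2, 0 repair genes passed for OH against C in stomach, 16 for stomach against intestine in C and 0 for the difference of the responses, the same numbers as with it. Over all probes the count went from 0 to 311 for OH against C in stomach and from 0 to 68 for the difference of the responses.

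The probes of the genes are 60 bases long. Those of Ogg1 and Mpg are shown because their enzymes were the glycosylases measured in the study's nicking assay, and those of Xrcc1 and Atr because their ends lie more than 60 bases apart in the genome, so that they match spliced RNA.
Ogg1, rn4 chr4:149211321-149211380, plus strand: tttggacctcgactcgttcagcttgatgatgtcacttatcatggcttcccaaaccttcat
Mpg, rn4 chr10:15645991-15646050, minus strand: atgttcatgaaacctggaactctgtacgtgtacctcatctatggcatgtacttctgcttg
Xrcc1, rn4 chr1:79858972-79859947, plus strand: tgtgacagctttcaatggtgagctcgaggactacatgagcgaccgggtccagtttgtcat
Atr, rn4 chr8:101013874-101014709, plus strand: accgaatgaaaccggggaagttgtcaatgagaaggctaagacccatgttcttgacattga
The positions are those of the array design. Of the 30 probes used, 4 spanned such a gap, the others being Lig3 and Brca1, and the GC content ranged from 35% to 53.3%.

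No repair gene passed the test for OH against C in either tissue. In stomach this was 0 of 27 beside 0% of all 21174 probes, and in middle intestine 0 of 27 beside 0.368% of all probes, at an adjusted p under 0.05 (limma, Benjamini-Hochberg over all probes kept). At an unadjusted p under 0.05, 3 of 27 genes came below the threshold in stomach, where 10.6% of all probes did, and 3 of 27 in middle intestine, where 10.5% did. Those in stomach included Brca1, which was well above background on no stomach array. The smallest adjusted p among the 27 genes was 0.396 in stomach and 0.347 in middle intestine. The median difference of the genes was -0.04 in stomach and -0.05 in middle intestine, beside 0.01 and 0.00 for all probes.

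Ogg1 had log2 ratios of -0.16, 0.07, -0.10 and -0.20 in C stomach and -0.19, -0.10, -0.13 and -0.15 in OH stomach. In middle intestine the ratios were 0.37, 0.68, 0.97 and 0.19 in C and 0.35, 0.48, 0.00 and 0.18 in OH. The stomach arrays of both treatments lay close together, whereas in the intestine the C arrays reached higher than the OH arrays but the groups overlapped. In middle intestine C averaged 0.55 ± 0.34 (SD, n = 4), and OH averaged 0.25 ± 0.21 (SD, n = 4). The difference of -0.30 had a 95% interval of -0.63 to 0.02 and an adjusted p of 0.529 in limma, and an exact permutation test gave p = 0.171, two-sided, where 4 arrays against 4 allow no p below 0.0286. Without C array 3, which stood at 0.97, the difference was -0.16, and with quantile-normalized Cy5 signals in place of ratios it was 0.02. In stomach the difference was -0.04, with an interval of -0.37 to 0.28 and an exact permutation p of 0.657.

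For Ogg1 in middle intestine, the Cy3 signal differed more between C and OH than the Cy5 signal did. The channels were Lowess-normalized between dyes, so the ratio difference, which did not pass, is not assigned to either channel. The Cy3 signal of Ogg1 was 7.52, 7.45, 7.27 and 7.32 on the log2 scale on the C arrays and 7.73, 7.58, 7.96 and 7.97 on the OH arrays. The 2 groups did not overlap, as was the case in Cy3 for 25.2% of all probes. The Cy5 signal, which holds the rat's tissue, was 7.89, 8.13, 8.24 and 7.52 in C and 8.08, 8.06, 7.96 and 8.15 in OH. From C to OH the Cy3 signal differed by 0.42 and the Cy5 signal by 0.12, beside medians over all probes of 0.08 and 0.09. The exact permutation p was 0.0286 for Cy3, the smallest this design allows, and 0.571 for Cy5. The Cy3 arrays of a group repeat the pool on 1 slide, so the Cy3 p does not measure a spread between rats. In stomach the Cy5 signal of Ogg1 was higher in OH by 0.44 and the Cy3 signal by 0.48, beside shifts of 0.32 and 0.33 over all probes.

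Mpg, the alkyladenine glycosylase, is not among the 32 genes and is given as the other enzyme of the nicking assay. In stomach its ratios were 0.51, 0.44, 0.10 and 0.30 under C and -0.06, 0.24, 0.32 and 0.17 under OH. In middle intestine they were 0.20, 0.26, 0.75 and 0.15 under C and 0.51, 0.57, 0.20 and 0.45 under OH. The groups overlapped in both tissues. The difference of OH from C was -0.17 in stomach (exact permutation p = 0.257, two-sided) and 0.09 in middle intestine (exact permutation p = 0.514, two-sided). The Mpg ratio of C stomach and C middle intestine had the same mean to the second decimal, 0.34.

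**Figure D1:**
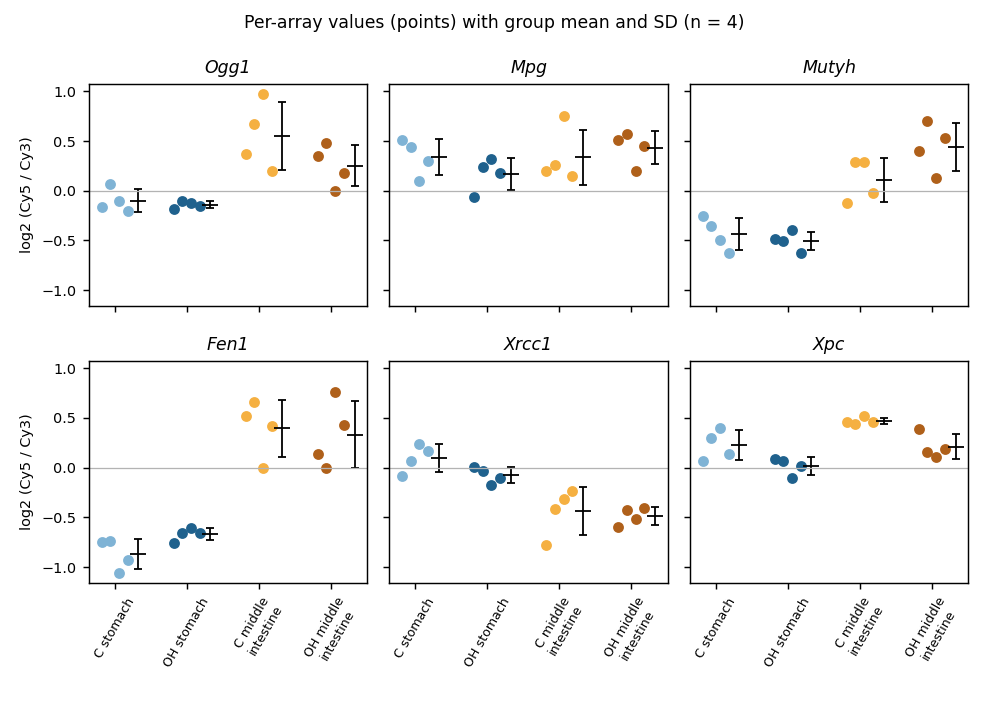
Log2 ratio of Cy5 (tissue) to Cy3 (common reference) on each array (points, 4 per group) for 6 genes, with the group mean and SD beside the points. Within each treatment Ogg1, Mutyh and Fen1 lay lower on all stomach arrays than on the intestine arrays and Xrcc1 higher, while between C and OH only Xpc in middle intestine had points that did not overlap.

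Among the other glycosylases, Mutyh had ratios in middle intestine of -0.13, 0.29, 0.29 and -0.03 under C and 0.40, 0.71, 0.13 and 0.53 under OH. Its mean was higher by 0.33 in OH (adjusted p = 0.408), 3 of the 4 OH arrays lay above all C arrays, and the difference did not pass the test. Unlike Ogg1, Mutyh differed more in Cy5 (0.56) than in Cy3 (0.23). Ung, which removes uracil, Nthl1, which removes oxidized pyrimidines, and Neil1, which removes oxidized and ring-opened bases, differed by 0.00, 0.04 and -0.11 in stomach and by -0.18, -0.15 and 0.14 in middle intestine, and none passed. Neil2 was well above background on 0 of the 16 arrays and Neil3 on 8 of the 16, so no comparison is given for these related glycosylases.

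Of the 8 genes that act after the glycosylase, Apex1, the endonuclease for baseless sites, came closest to the threshold in stomach. Its ratios were 0.00, 0.01, -0.05 and 0.02 in C stomach and 0.17, 0.21, 0.17 and 0.24 in OH stomach. The groups did not overlap, as was the case for 7.6% of all probes and for 3 of the 27 genes in stomach. The difference of 0.21 had an adjusted p of 0.464. In middle intestine Apex1 differed by -0.09. The other 7 genes, Xrcc1, Parp1, Parp2, Lig1, Lig3, Polb and Fen1, differed by -0.21 to 0.20 in stomach and by -0.13 to 0.00 in middle intestine, and none passed.

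Nucleotide excision repair removes bulky adducts. Ercc3, a helicase of the complex that opens DNA around the lesion, had ratios of 0.04, 0.06, -0.04 and -0.01 in C stomach and 0.29, 0.25, 0.12 and 0.28 in OH stomach. The arrays did not overlap and the difference was 0.22 (95% interval 0.05 to 0.40, adjusted p = 0.396), the smallest p of the 27 genes in stomach, yet it did not pass. A fit with array weights and Tukey's test of the methods did call it, as they did 1138 and 709 probes in all, against 0 in the fit reported here. The Cy5 signal of Ercc3 differed by 0.42 and the Cy3 signal by 0.19.

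Xpc, which recognizes the lesion, had ratios in middle intestine of 0.46, 0.43, 0.52 and 0.46 under C and 0.39, 0.16, 0.11 and 0.19 under OH. The arrays did not overlap, as for 5.86% of all probes, and Xpc was the only 1 of the 27 genes for which this held in middle intestine. The difference was -0.26 (95% interval -0.47 to -0.05, adjusted p = 0.347 in limma). Tukey's test of the methods called it, with 936 probes in all against 78 here. In Cy5 signals scaled between arrays the direction turned, up to a difference of 0.19. In stomach Xpc had 0.07, 0.30, 0.40 and 0.14 in C and 0.09, 0.07, -0.11 and 0.02 in OH, a difference of -0.21 with an adjusted p of 0.475, which also turned in scaled Cy5 signals, up to 0.23. As for Ogg1, the reference channel differed more than the tissue channel in middle intestine, by 0.53 in Cy3 and 0.27 in Cy5, and in stomach by 0.75 and 0.55.

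Xpa, a scaffold of the same route, had ratios of 0.35, 0.60, 0.58 and 0.60 in C stomach and 0.50, 0.24, 0.13 and 0.16 in OH stomach, a difference of -0.28 with an adjusted p of 0.534. Its groups overlapped. Ercc1, Ercc5 and Rad23b differed by -0.12, 0.21 and 0.16 in stomach and by 0.09, 0.13 and -0.04 in middle intestine. Rad23b was, beside Apex1 and Ercc3, the third gene whose stomach arrays did not overlap, at -0.03, -0.01, -0.07 and -0.04 in C and 0.11, 0.12, 0.15 and 0.13 in OH, and its adjusted p was 0.644. Ercc6 was well above background on 10 of the 16 arrays, with all 4 arrays of no group among them, and is not compared.

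In mismatch repair, which corrects errors of replication, Pms2 had ratios in middle intestine of 0.08, -0.03, 0.38 and 0.19 under C and -0.01, 0.04, -0.15 and 0.04 under OH. The difference was -0.18 (adjusted p = 0.667), the groups overlapped, and the direction turned in scaled Cy5 signals, up to 0.19. Msh3 and Mlh3 differed by 0.16 and -0.06 in stomach and by 0.25 and 0.00 in middle intestine. Msh3 stood at 0.84 on C stomach array 2, the array with low striated muscle genes, and between -0.12 and -0.05 on the other C stomach arrays.

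Among the genes of the response to double-strand breaks, Brca1 and Atm had the widest spread. Brca1 had ratios of 0.04, -0.80, -1.79 and -0.02 in C stomach and -2.04, -1.16, -0.82 and -2.84 in OH stomach, but in Cy5 it was well above background on 0 of these 8 arrays. Its difference of -1.07 in stomach (adjusted p = 0.426) thus has no level behind it, and the Cy3 signal of Brca1 was higher in OH stomach by 1.22. Atm, the kinase that signals broken ends, had ratios of -1.74, -0.57, -1.34 and -1.42 in C middle intestine, where 1 of 4 arrays was well above background, and of -1.28, -0.45, -0.11 and -0.07 in OH middle intestine, where 3 of 4 were. The difference of 0.79 (SE 0.33) had an adjusted p of 0.417. Brca2, Atr and Tp53bp1 differed by -0.16, -0.18 and 0.00 in stomach and by 0.01, -0.08 and -0.01 in middle intestine.

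Whether the response to obestatin differed between stomach and intestine was tested by the difference of the 2 responses. None of the 27 genes passed, beside 0% of all probes, and the smallest adjusted p was 0.836. At an unadjusted p under 0.05 there were 3 genes, Ercc3, Brca1 and Apex1, against 5.85% of all probes. Brca1 was well above background in OH middle intestine only, the group through which the filter kept it, so no test is read from it. For Ogg1 the responses differed by 0.26, with a 95% interval of -0.20 to 0.72.

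Each channel was also compared apart, without scaling between arrays. In stomach the Cy3 signal of the reference was higher in OH for 27 of 27 genes and passed for 22 (81.5%), beside 60.5% of all probes. The Cy5 signal was also higher for 27 of 27 and passed for 4 (14.8%), Pms2, Apex1, Parp2 and Xpc, beside 6.69% of all probes. In middle intestine 7 genes passed as higher in Cy3, beside 18.6% of all probes, and 0 in Cy5, beside 0.51%. Measured from the median of all probes in its channel, the Cy3 difference was the larger of the 2 for 18 of 27 genes in middle intestine and for 12 of 27 in stomach.

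**Figure D2:**
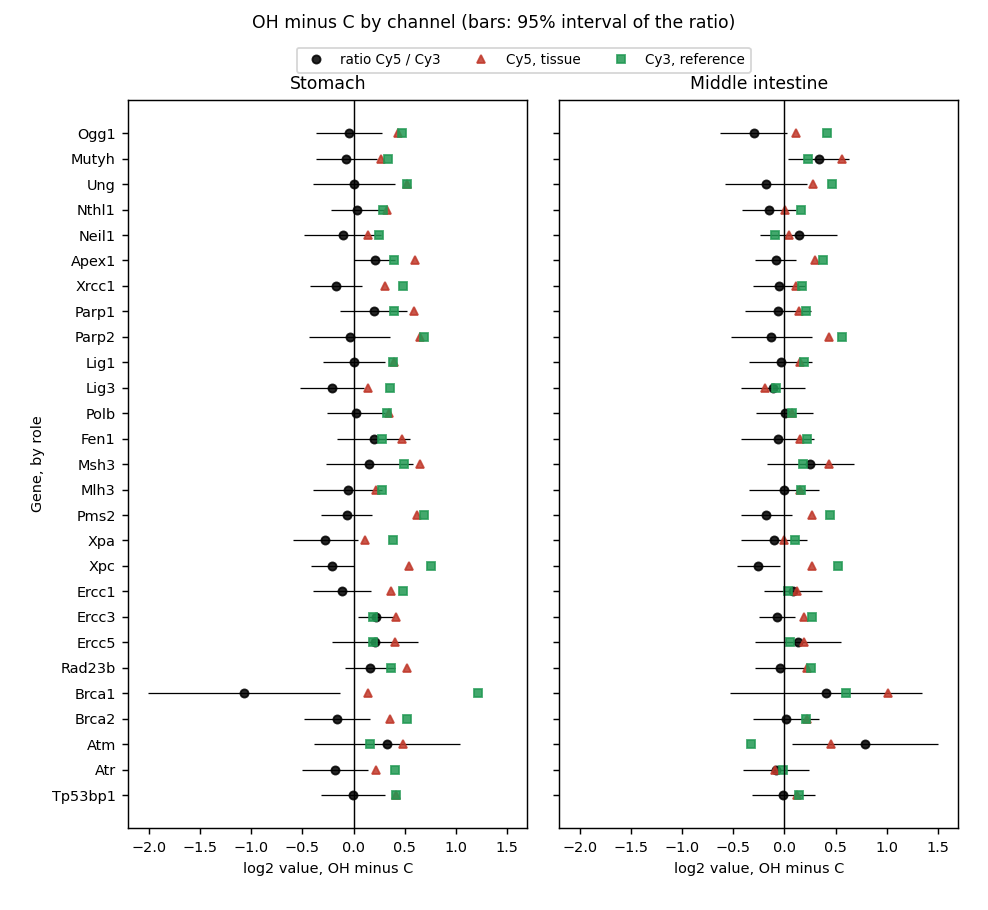
Difference of OH from C on the log2 scale for the 27 genes kept, in stomach (left) and middle intestine (right), for the ratio (circles, with 95% intervals), the Cy5 tissue channel (triangles) and the Cy3 reference channel (squares). Both channels lay to the right of 0 for all genes in stomach, the ratios lay around 0, and in middle intestine the Cy3 point of Ogg1, 0.42, lay to the right of its Cy5 point, 0.12.

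Between the tissues repair genes passed in both directions, in OH rats at a share near that of all probes. Within each treatment the tissues lay on different slides, so tissue and slide cannot be told apart here. In C rats 16 of 27 genes (59.3%) passed, beside 44.9% of all probes, 11 as lower in stomach (22.3% of all probes) and 5 as higher (22.7%). In OH rats 10 of 27 (37.0%) passed, beside 38.2% of all probes, 8 as lower (19.1%) and 2 as higher (19.2%). Brca1 and Atm were kept by the filter through some groups only, and without them 15 of 25 genes passed in C and 9 of 25 in OH. The arrays of the tissues did not overlap for 15 of 27 genes in C, beside 43.7% of all probes, and for 10 of 27 in OH, beside 35.2%. In both treatments and in the same direction, 7 genes were lower in stomach, beside 15.6% of all probes, and 2 were higher, beside 15.5%. The lower genes were Fen1, Brca2, Mutyh, Atr, Mlh3, Parp1 and Lig1, and the higher genes were Xrcc1 and Polb. No gene passed in opposite directions.

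Fen1, the flap endonuclease of replication and of base excision repair, differed most among these 9. Its ratios were -0.75, -0.74, -1.06 and -0.93 in C stomach against 0.52, 0.66, -0.01 and 0.42 in C middle intestine. In OH rats they were -0.75, -0.65, -0.61 and -0.66 in stomach against 0.14, 0.00, 0.76 and 0.43 in middle intestine. No stomach array reached an intestine array. The difference was -1.26 in C (2.40-fold lower in stomach, SE 0.17, adjusted p = 2.97e-05), while in OH rats stomach was 2.00-fold lower (adjusted p = 0.000269).

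Lig1, which seals the same nicks, had ratios of -0.72, -0.75, -0.95 and -0.82 in stomach against -0.34, -0.21, -0.48 and -0.07 in middle intestine under C, and -0.82, -0.90, -0.59 and -0.91 against -0.60, -0.54, -0.04 and -0.07 under OH. It was lower in stomach, with log2 differences of -0.53 in C and -0.49 in OH, with adjusted p-values of 0.00754 and 0.014. The arrays did not overlap in C and overlapped in OH. Parp1, which binds broken strands, had ratios of -0.74, -0.67, -0.85 and -0.88 in stomach against 0.11, 0.09, -0.40 and 0.14 in middle intestine under C, and -0.34, -0.64, -0.79 and -0.59 against -0.35, -0.24, 0.16 and 0.11 under OH. Its difference was -0.77 in C and -0.51 in OH, with adjusted p-values of 0.000868 and 0.0151. The Parp1 arrays also overlapped in OH, at -0.34 on a stomach array and -0.35 on an intestine array.

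Xrcc1, the scaffold that holds the repair patch together, went the other way. It had ratios of -0.08, 0.07, 0.24 and 0.17 in stomach against -0.78, -0.42, -0.32 and -0.24 in middle intestine under C, and 0.01, -0.04, -0.18 and -0.10 against -0.60, -0.42, -0.52 and -0.41 under OH. The stomach arrays lay above the intestine arrays in both treatments. The difference was 0.53 in C (1.45-fold, adjusted p = 0.00222) and 0.41 in OH (1.33-fold, adjusted p = 0.0134). Polb, the polymerase of this route, was higher in stomach by 0.44 and 0.46 (adjusted p = 0.0134 and 0.0119). A dimmer probe of Polb gave 0.43 in C and 0.08 in OH and did not pass in either, so the OH result rests on the brighter probe. Apex1 passed in C only, at -0.35, and was at -0.05 in OH. Parp2 and Lig3 did not pass in either.

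The 5 glycosylases compared did not share a direction. Mutyh was lower in stomach, at -0.25, -0.36, -0.50 and -0.63 in C and -0.49, -0.51, -0.40 and -0.62 in OH, against the intestine values given above. No stomach array reached an intestine array, and the difference was -0.54 in C (adjusted p = 0.00583) and -0.95 in OH (adjusted p = 8.85e-05). Ogg1 was lower in stomach in C, with a difference of -0.65 (95% interval -0.98 to -0.33, adjusted p = 0.00303). In OH the difference of -0.39 had an interval of -0.72 to -0.07 and an adjusted p of 0.0534, just above the threshold, although the arrays did not overlap in either treatment. Ung was lower in stomach in C, at -0.61 (adjusted p = 0.0157) and stood at -0.43 in OH (adjusted p = 0.0841). Neil1 was higher in stomach in C by 0.59 (adjusted p = 0.0146) and stood at 0.35 in OH (adjusted p = 0.143). Nthl1 did not pass, at 0.03 and 0.22.

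**Figure D3:**
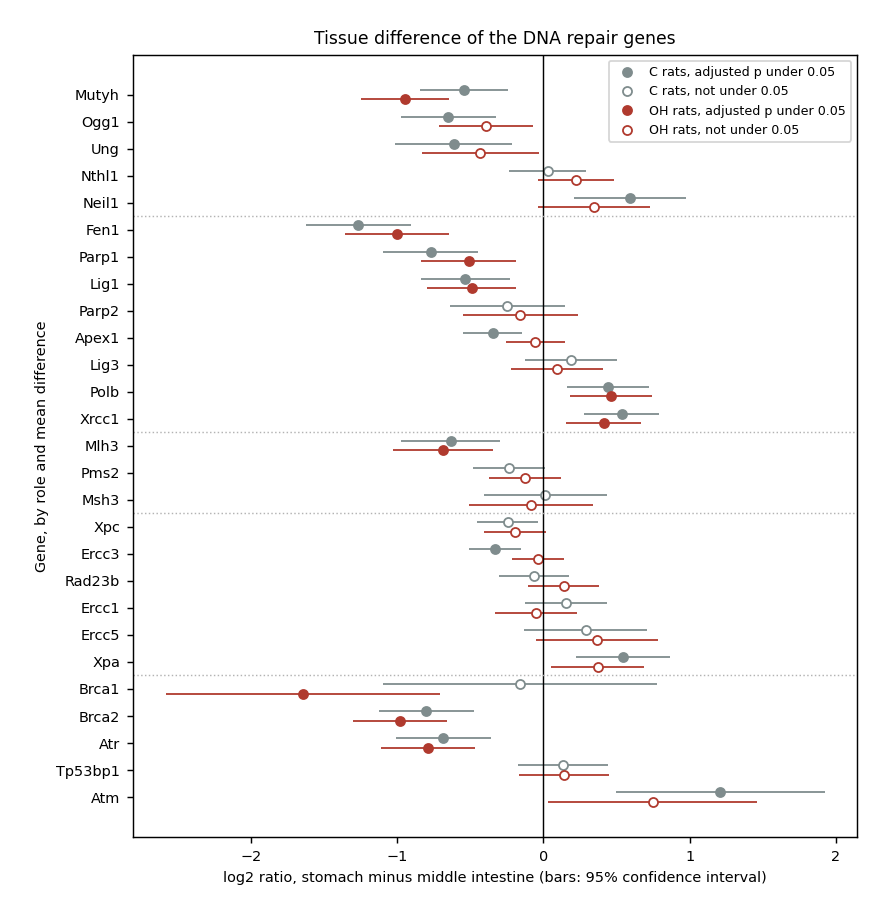
Log2 ratio of stomach minus middle intestine for the 27 genes kept, grouped by role and ordered by mean difference, in C rats (grey) and OH rats (red), with 95% intervals and filled points where the adjusted p was under 0.05. Fen1, Brca2, Mutyh, Atr, Mlh3, Parp1 and Lig1 lay to the left with both points filled, and Xrcc1 and Polb to the right.

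Brca2, which acts in homologous recombination at broken DNA, had ratios of -0.80, -1.03, -1.07 and -0.93 in stomach against -0.13, -0.08, -0.38 and -0.04 in middle intestine under C, and -1.20, -0.93, -0.87 and -1.48 against -0.45, -0.17, 0.14 and -0.08 under OH. The tissues did not overlap, with differences of -0.80 in C and -0.98 in OH (adjusted p = 0.000649 and 0.000136). Atr, the kinase that answers stalled replication forks, stood at -0.19, -0.24, -0.23 and -0.23 in stomach against 0.55, 0.59, 0.11 and 0.59 in middle intestine under C, and -0.44, -0.41, -0.20 and -0.59 against 0.10, 0.14, 0.73 and 0.56 under OH. Its differences were -0.68 and -0.79 (adjusted p = 0.00217 and 0.000867). The probe of Atr without a gap between its ends gave -0.48 and -0.32, in the same direction, and did not pass.

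Brca1 was well above background on all 4 OH middle intestine arrays, at -0.14, 0.19, -0.19 and -0.15, and on none of the other 12. After background correction by normexp (offset 50), loess and quantile scaling between arrays, its mean Cy5 signal was 1.24-fold higher in OH middle intestine than in OH stomach. This fold is a description, since the OH stomach signal was not above background and the fold depends on the offset. The processed log2 Cy5 signal averaged 4.51 in OH middle intestine and 2.84 in OH stomach. As the filter kept Brca1 through OH middle intestine alone, no test is read from it. No fold is given between the tissues of C rats, where no array was above background. Atm was kept through the stomach groups, where it was the higher, and its tissue differences of 1.21 in C and 0.75 in OH are given as a description. Against C middle intestine, with 1 of 4 arrays above background, its call was lost with normexp and loess, and the filter on both channels left it out. Its stomach ratios were 0.28, 0.22, -0.14 and -0.61 in C and -0.12, 0.83, 0.64 and -0.28 in OH, all well above background. Tp53bp1 did not pass, at 0.13 and 0.14, nor did either of its other 2 probes.

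Of the mismatch repair genes, Mlh3, a partner in the complex that cuts the mispaired strand, was lower in stomach. It had ratios of 0.00, 0.32, -0.20 and -0.20 in stomach against 0.58, 0.95, 0.48 and 0.45 in middle intestine under C, and -0.23, 0.16, 0.06 and -0.30 against 0.54, 0.49, 0.89 and 0.52 under OH. The tissues did not overlap, with differences of -0.63 and -0.69 (adjusted p = 0.00488 and 0.0033). Pms2 and Msh3 did not pass, at -0.23 and 0.01 in C and -0.13 and -0.09 in OH. In nucleotide excision repair no gene passed in both treatments: Ercc3 was lower in stomach in C, at -0.33, and Xpa higher, at 0.54, against -0.04 and 0.37 in OH. Xpc, Ercc1, Ercc5 and Rad23b passed in neither.

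Between the tissues the Cy5 signal differed more than the Cy3 signal for the genes that passed in both treatments. Of the 9 genes that passed in both treatments, all 9 had the same sign in Cy5 alone as in the ratio, and 5, Fen1, Brca2, Mutyh, Atr and Mlh3, also passed in Cy5 alone in both treatments, where 40.8% of all probes passed in C and 35.5% in OH. In Cy3 0 of the 9 passed, beside 9.68% of all probes in C and 0.997% in OH, and they differed by -0.24 to 0.23. Leaving out each array in turn gave 16 or 17 genes in C and 10 to 13 in OH. With the arrays scaled to a common spread, the count in C was again 16, but in OH 4 genes passed, Fen1, Brca2, Parp1, Lig1, Polb and Brca1 being lost, while over all probes the count went from 8090 to 5459.

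**Figure D4:**
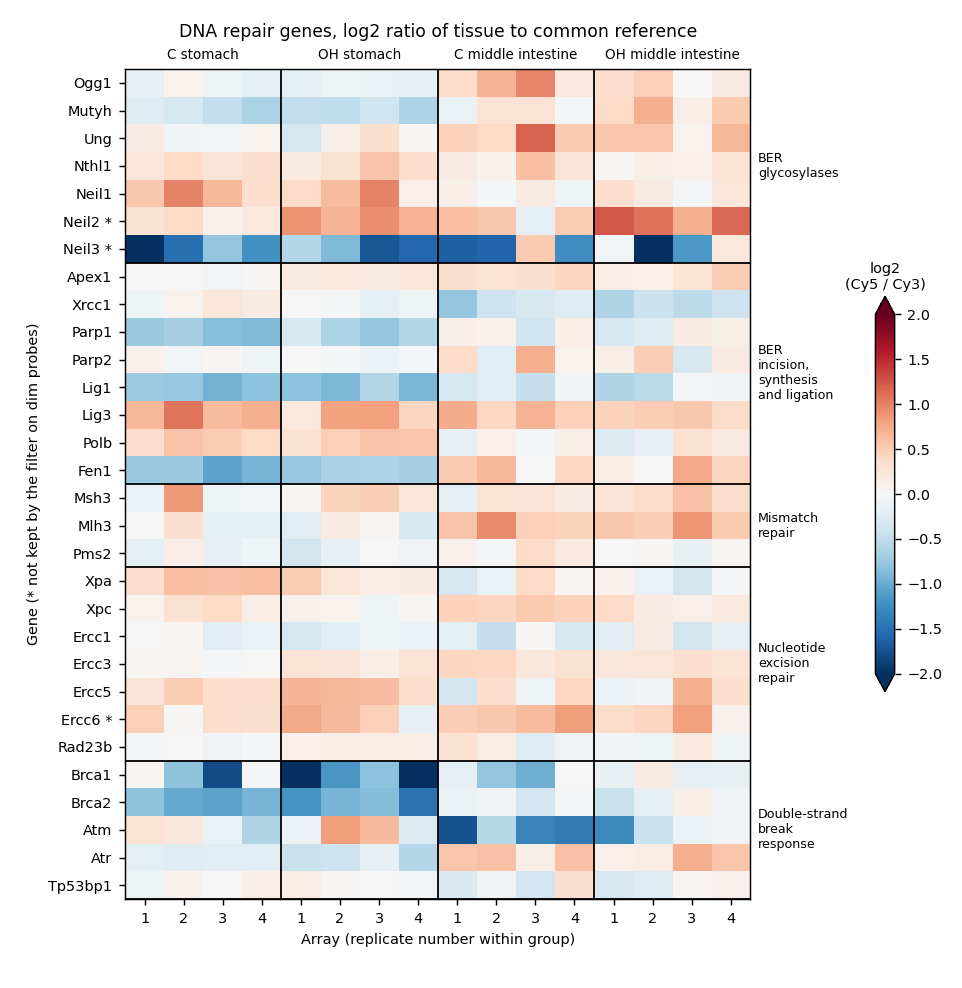
Log2 ratio of Cy5 to Cy3 of the 30 genes found on the array (rows, by role) on the 16 arrays (columns, by group), with red above and blue below the common reference and colours ending at -2 and 2. The rows of Fen1 and Brca2 were blue in stomach and paler or red in middle intestine, while those of Parp1 and Lig1 overlapped between the tissues in OH rats. The 3 genes with an asterisk were not kept by the filter on dim probes.

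Other genes of repair and damage signalling, 73 compared in 6 lists, gave 0 calls for OH against C in both tissues. Between the tissues 26 were lower and 3 higher in stomach in C, and 25 lower and 4 higher in OH, where all probes gave 22.3% lower and 22.7% higher in C and 19.1% and 19.2% in OH. Homologous recombination and Fanconi genes gave 10 lower and 0 higher of 19 in C, with Rad54l at -1.49 and a list median of -0.52 beside -0.01 for all probes. In damage signalling 5 of 11 were lower and 0 higher in C, with Chek1, the checkpoint kinase downstream of Atr, at -1.43 and Topbp1 at -0.90. The other nucleotide excision repair genes gave 8 lower and 1 higher of 18 in C, led by Gtf2h1 at -1.24 and Ccnh at -0.94. In the other base excision repair genes 1 of 14, Tdg at -0.75, was lower and 2 were higher in C, among them Parp3 at 1.23. Of 8 end joining genes 1, Polm at -0.72, was lower, a share below that of all probes, and of 3 direct reversal genes 1, Alkbh2 at -0.48.

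Genes of proliferation were lower in stomach in both treatments. Of 23 listed genes of replication and mitosis, 21 were lower in stomach in C and 23 in OH, with list medians of -0.90 and -0.81, and 0 were higher. Their mean ratio was -0.71 to -0.47 on the C stomach arrays, -0.87 to -0.41 on the OH stomach arrays, 0.15 to 0.37 on the C middle intestine arrays and 0.02 to 0.30 on the OH middle intestine arrays. All 23 were well above background on at least 1 array of each group. Leukocyte genes were also lower in stomach, with 6 of 11 passing in each treatment. The part of these genes in the tissue differences of the repair genes was not tested. Of 15 genes known to rise after DNA damage, 0 passed for OH against C in either tissue, and 3 were higher and 1 lower in stomach in C, with Ccng1 at 1.04 and Bax at -1.58.

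**Figure D5:**
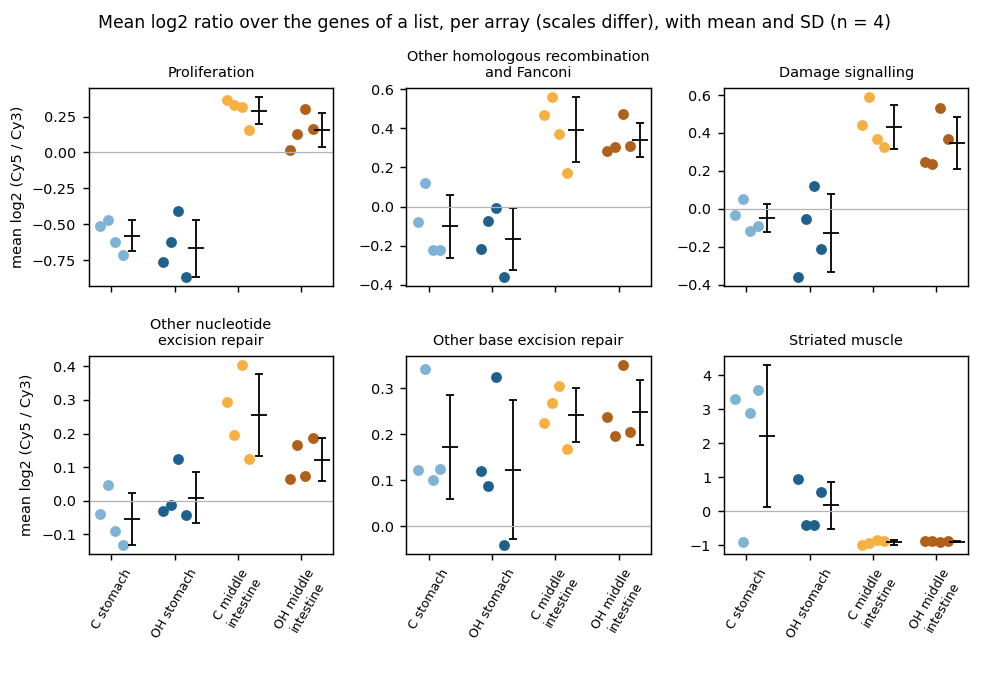
Mean log2 ratio over the genes of 6 lists on each array (points), with group mean and SD (n = 4), each panel on its own scale. Proliferation, homologous recombination and damage signalling lay lower on the stomach arrays than on the intestine arrays, and striated muscle lay near 3 on 3 C stomach arrays and at -0.90 on the other.

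Sequences before the start of transcription were searched for the letters of an E2F site, TTTCGCGC, TTTGGCGC, TTTCCCGC or TTTGCCGC on either strand, from 250 bases before to 50 bases after the start, as given by RefSeq for the GRCr8 build. A match was found in 2.25% of 27457 promoters and in 4 of the 26 repair genes with an entry, Atm, Lig1, Nthl1 and Ung, beside 7 of 18 promoters of the proliferation list. Of the 7 genes lower in stomach in both treatments only Lig1 had a match, within the transcript. The windows of Ung and Nthl1 are shown because both hold the letters (capitals) while their tissue differences in C were -0.61 and 0.03.
Ung, GRCr8 chr12:48154046-48154091, minus strand: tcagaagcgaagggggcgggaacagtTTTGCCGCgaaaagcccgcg
Nthl1, GRCr8 chr10:14160172-14160231, plus strand: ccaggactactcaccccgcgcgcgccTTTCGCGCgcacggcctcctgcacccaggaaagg
The match began 20 bases before the start in Ung and 136 bases before it in Nthl1, and it is a description of the letters, not of a bound site.

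Within groups the median SD of the repair genes was below that of all probes. In stomach the median SD of the 27 genes was 0.12 under C and 0.15 under OH, beside 0.20 and 0.25 over all probes. In middle intestine it was 0.23 and 0.21, beside 0.27 and 0.26. On C middle intestine array 3, Ogg1 (0.97) and Ung (1.18) were highest in their group while Fen1 (-0.01), Atr (0.11), Parp1 (-0.40) and Brca2 (-0.38) were lowest. On OH middle intestine array 3, Ogg1 (0.00) and Ung (0.07) were lowest and Fen1 (0.76), Atr (0.73) and Brca2 (0.14) highest. Enterocyte genes averaged 0.16 on C array 3, the highest of that group, and were lowest of OH on array 3, below -0.12 to 1.38 on the other OH arrays, while smooth muscle genes averaged -1.37, the lowest of C, and -0.22, the highest of OH. The part of these markers in the values of the repair genes was not tested.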

How the data were processed

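The authors extracted the scans with Agilent Feature Extraction (version 10.10.1.1 in the file headers, 10.7.3.1 in the submitters' processing notes) and deposited, for each of the 16 arrays, the raw and processed intensity of both channels, background-subtracted and Lowess-normalized between dyes. They also deposited a table of log10 ratios, used as an alternative. From the processed intensity, log2(Cy5/Cy3) was taken without outlier spots, with the mean over repeated spots. The fit used 21174 of 30367 probes, those whose Cy5 signal every array of some group marked as well above background, with 3 or more values per group. A model with the 4 group means was fitted to the 16 arrays in limma 3.58.1 (R 4.3.3). Its p-values were adjusted by Benjamini-Hochberg across these probes and called under 0.05. The channels were fitted alike, unscaled. Alternatives covered background correction, scaling, probe filters, weights, a replicate block, each array left out and the methods' ANOVA. The fit was tested on simulated data. For OH against C it called 58% of probes with a log2 change of 1 in stomach and 61.5% in middle intestine. Smaller changes were not simulated. For Ogg1 and Mpg, exact permutation tests were run (Python 3.11.15). Replicates are different rats in the ratio and in Cy5, so p-values measure the spread between these arrays, whose number limits the precision. In Cy3 the replicates repeat the pool, and p-values there do not measure a spread between rats.

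The members and lists were chosen with earlier results of these data known. Values per array are given for Ogg1, Mpg, the 5 genes with the smallest p per tissue for OH against C, and the 8 with the largest mean tissue difference among those passing in C and OH. At most 2 genes with the smallest p are named per other list. Values of other genes were named after they were seen. Marker lists for mucosa, enterocytes, muscle, forestomach, pancreas, leukocytes and erythroid cells checked the tissues. For 25 of the 30 genes the accession of the design was found in RefSeq, under the same symbol. The OL dose group was not analysed here.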

Additional observations from a re-analysis of the deposited data

Results flagged for a closer look

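Of 68 groups of 4 arrays (17 genes in 4 groups), 5 held an array far from the other 3 by Dixon's test, where chance gives about 1 in 20, or 3.4. In C middle intestine, array 3 stood at 0.11 for Atr against 0.55 to 0.59 on the others (gap over range 0.926), and at -0.40 for Parp1 against 0.09 to 0.14 (0.911). In OH middle intestine, Brca1 stood at 0.19 on array 2 against -0.19 to -0.14 (0.874), and Mlh3 at 0.89 on array 3 against 0.49 to 0.54 (0.888). In C stomach, Xpa stood at 0.35 on array 1 against 0.58 to 0.60 (0.943). Without C middle intestine array 3 the number of genes passing between the tissues was 16 in C and 13 in OH.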

How the results depend on the processing

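The counts of repair genes passing were 0 for OH against C in stomach and in middle intestine and 0 for the difference of the responses. They became 1 in stomach with array weights and 1 with ANOVA and Tukey's test (Ercc3 in both, beside 1138 and 709 of all probes against 0), and 1 in middle intestine without the filter on dim probes (Neil2, which no array measured above background) and 1 with ANOVA and Tukey's test (Xpc), beside 1378 and 936 of all probes against 78. At an unadjusted p under 0.05 they were 3 in each. Between the tissues in OH, 10 became 4 with the arrays scaled to a common spread, and 8090 probes in all became 5459. The cause was not tested. All other alternatives stayed within 1.5 times, at 14 to 18 in C and 9 to 13 in OH. Leaving out each array in turn gave 0 for OH against C and for the responses, 16 to 17 between the tissues in C and 10 to 13 in OH. Mpg in stomach differed by -0.22 after that scaling, with an exact permutation p of 0.0286, while Ogg1 passed under no alternative for OH against C. For Ogg1 between the tissues in OH, 9 of 31 alternatives moved the adjusted p below 0.05. No called value changed sign. Among those not called, OH against C turned direction under some alternatives for Ogg1 and Xpc in both tissues, Pms2 in middle intestine (-0.18 to 0.19) and Brca1 in stomach (-1.07 to 0.08).

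Whether same-numbered stomach and intestine arrays came from the same rat is not given in the labels. Their deviations correlated between 0.06 and 0.25 in C, with 3 of 4 arrays best with their own number, and between -0.12 and 0.32 in OH, with 2 of 4, so pairing could not be settled. Between C and OH the correlations were -0.40 to 0.51. A replicate block gave 0, 0, 0, 16 and 12 genes for the same comparisons, with Ogg1 and Xpa added between the tissues in OH.

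Signal over background limited Brca1, Atm, Neil3 and Ercc6, which were not above it on all arrays, and Neil2, which was above it on none.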
